A study of Sus scrofa with 30 samples.

Results

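The genes described here encode water channels and sodium pump subunits, listed for their role in filling the cavity of the blastocyst with fluid. They were studied in porcine embryos, and fluid transport was not measured. Of 9 listed genes, the 7 that matched a gene identifier in the count table of all embryos were kept, out of 13103 genes in that table. They are the aquaporins AQP3, AQP9 and AQP11, the sodium pump beta subunits ATP1B1 and ATP1B3, and the pump modulators FXYD3 and FXYD4. AQP8 and ATP1B2 matched no row of that table and were not analysed here. The members were chosen by their role, with earlier results of these data known.

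RNA-seq was run on 30 whole embryos, 5 of each sex at each of 3 ages, Day 8, Day 10 and Day 12 after insemination. The German Landrace × Pietrain gilts were synchronized with altrenogest, PMSG and hCG and were all inseminated with semen of a single Pietrain boar. Embryos were flushed from 4 gilts slaughtered per day, and the sex of each was determined by PCR. The labels do not tie embryos to gilts, so p-values measure the spread between embryos, some of which were littermates. Day and gilt cannot be told apart, since each gilt gave embryos of 1 day only.

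The mammalian blastocyst fills with fluid because its outer epithelium, the trophectoderm, moves sodium inward and water follows. The sodium pump, a pair of a catalytic alpha subunit and a glycosylated beta subunit, sits on the inner side of these cells and drives that gradient. The beta subunit carries the alpha subunit to the membrane, small FXYD proteins tune its affinity for sodium and potassium, and aquaporins give water a path across the cells. Tight junctions keep the fluid from leaking out again. In the pig these days span the change from a spherical to a rapidly elongating, filamentous conceptus.

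Levels are given as CPM, the reads of a gene relative to all reads of the embryo after TMM scaling. CPM is not corrected for transcript length, so levels are compared between embryos and not between genes. Each embryo was sequenced to between 6068212 and 34002508 reads in genes (median 22202723), and 3 reads corresponded to 0.0823 to 0.434 CPM. Embryo d12_f_245 had the lowest total (embryos are named by day, sex and number, as in their labels). Together with d12_f_271 it also stood apart from the others of its day over all genes, with a mean correlation of log2 CPM of 0.901 and 0.931, against 0.940 to 0.960 for the remaining Day 12 embryos. Day 12 results of the members were therefore also computed without these 2 embryos. In such whole-embryo libraries, fewer cells of a type and less RNA per cell cannot be told apart. Where the ranges of days did not overlap for a member, the share of all genes with this trait was not counted. A lack of overlap therefore cannot be called particular to a member.

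All 7 members are protein-coding genes in the Sscrofa11.1 RefSeq annotation. AQP9 lies at chr1:113798380-113848452, AQP11 at chr9:12065550-12076339 and AQP3 at chr10:33045374-33050285. ATP1B1 lies at chr4:81912543-81937015 and ATP1B3 at chr13:82680442-82727052. FXYD3 lies at chr6:44647771-44654377 and FXYD4 at chr14:61633355-61637733.

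Most of these genes changed between Days 10 and 12, when 6 of the 7 members passed the threshold for a stage difference (FDR below 0.001 with an absolute log2 fold change above 1). AQP3, AQP9, ATP1B3 and FXYD4 fell, whereas ATP1B1 and FXYD3 rose. Over all genes, 23.3% passed that threshold in this interval, 14.9% as higher and 8.39% as lower on Day 12. Between Days 8 and 10 no member passed it, against 14.1% of all genes (9.88% higher and 4.2% lower on Day 10). From Day 8 to Day 12, 5 of 7 passed, 2 higher and 3 lower, against 32.5% of all genes (22.0% higher and 10.4% lower). The median log2 fold change of the 7 members was 0.67 from Day 8 to Day 10, -1.04 from Day 10 to Day 12 and -0.84 from Day 8 to Day 12. The medians over all genes tested were 0.03, 0.04 and 0.09. The 3 comparisons share their embryos and come from 1 edgeR quasi-likelihood fit with Benjamini-Hochberg adjustment over 13103 genes. The deposited tables leave out genes under a CPM cutoff. ATP1B1 and FXYD3 had no row in the table of Day 8 alone, nor AQP9 in that of Day 12. These genes can owe their place among the members to the days on which they were higher. Their direction of change is therefore not independent of the cutoff.

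**Figure D1:**
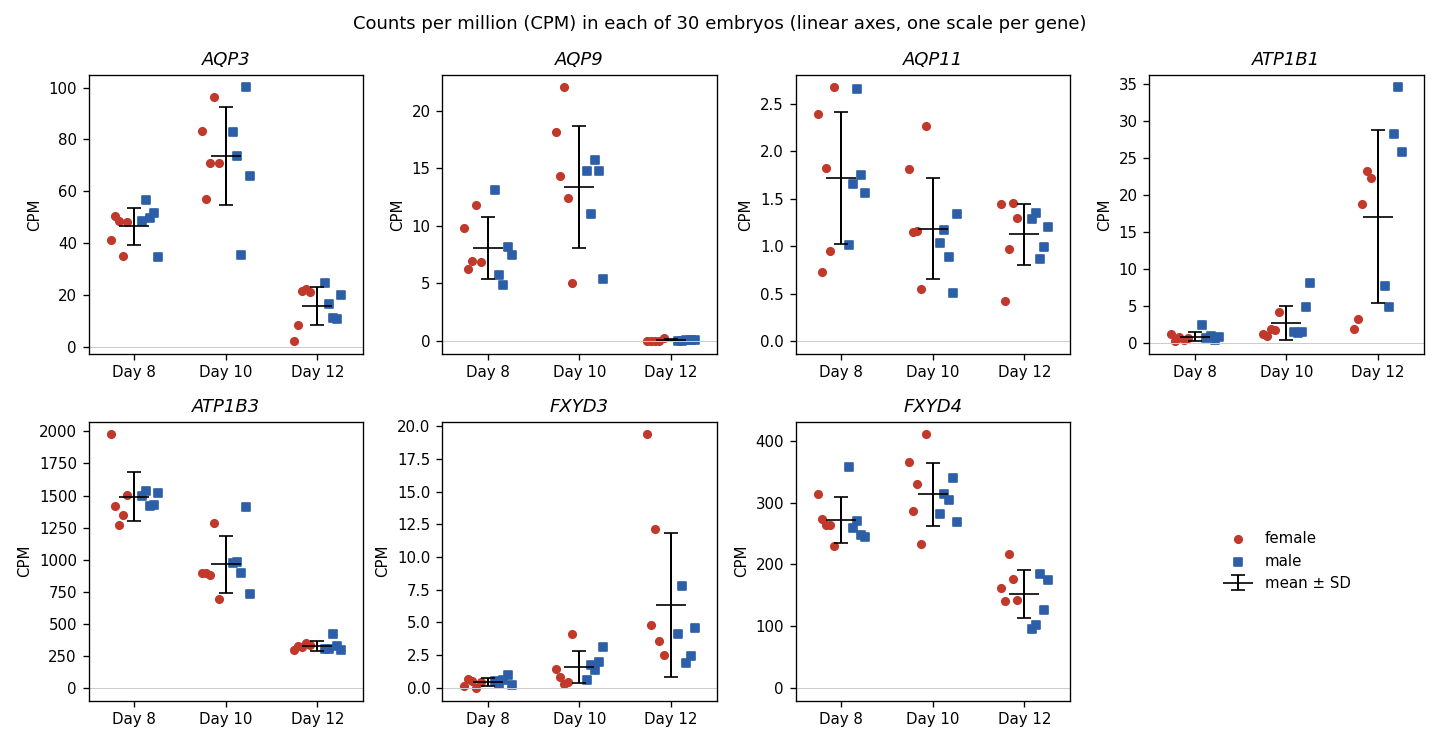
CPM of the 7 members in each of 30 embryos on linear axes, by day, with female embryos as red circles, male embryos as blue squares, and the mean ± SD of 10 embryos in black. AQP3, AQP9, ATP1B3 and FXYD4 are lower in every Day 12 embryo than in any Day 10 embryo, and ATP1B1 and FXYD3 have their highest values on Day 12. The share of all genes separated in this way was not counted.

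AQP3, a channel for water and glycerol, was highest on Day 10. Its level ran from 34.7 to 56.6 CPM on Day 8 (median 48.4, mean 46.4 ± 7.14 SD, n = 10), and from 35.3 to 100.0 CPM on Day 10 (median 72.3, mean 73.6 ± 18.9). On Day 12 it ran from 2.17 to 24.7 CPM (median 18.4, mean 15.8 ± 7.39). Of the 10 Day 10 embryos, 9 lay above every Day 8 embryo and only d10_m_333 lay within the Day 8 range. No Day 12 embryo reached the lowest embryo of either earlier day. The fall from Day 10 to Day 12 was 4.61-fold (log2 fold change -2.20, SE 0.24, FDR = 2.36e-09 in edgeR's quasi-likelihood test), and that from Day 8 to Day 12 was 2.91-fold (-1.54, SE 0.23, FDR = 8.45e-07). The higher level on Day 10 than on Day 8 (0.67, SE 0.23, FDR = 0.0142) did not pass the stage threshold. Embryos d12_f_245 and d12_f_271 had the lowest AQP3 levels of Day 12 (2.17 and 8.22 CPM). Without these 2 embryos both falls still passed (log2 fold change -1.33 from Day 8, FDR = 6.08e-11 from Day 10). The Day 8 to Day 12 fall was no longer called in female embryos alone (-1.64) or when tested against a log2 fold change of 1.

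AQP9, a channel that also passes glycerol, urea and other small solutes, dropped to the detection limit on Day 12. It ranged from 4.85 to 13.1 CPM on Day 8 (median 7.19, mean 8.08 ± 2.68, n = 10) and from 4.99 to 22.0 CPM on Day 10 (median 14.6, mean 13.4 ± 5.27). On Day 12 the 10 embryos together held 9 reads, against 2905 reads on Day 10. Of these Day 12 embryos 6 had no read, 9 had at most 3 reads, and d12_f_299 had the highest level at 0.235 CPM. The days did not overlap between Day 12 and either earlier day. The fitted log2 fold change was -8.17 from Day 10 to Day 12 (SE 0.44, FDR = 2.69e-16) and -7.44 from Day 8 to Day 12 (FDR = 1.51e-15), sizes that depend on the handling of counts near 0. Both passed without d12_f_245 and d12_f_271 (-8.02 and -7.30). From Day 8 to Day 10 the estimate was 0.72 (SE 0.27, FDR = 0.0212), with 6 of 10 Day 10 embryos above all Day 8 embryos, and it did not pass the stage threshold. The 2 lowest Day 10 embryos were d10_f_454 at 4.99 CPM and d10_m_453 at 5.35 CPM.

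AQP11, an aquaporin that resides mainly in the endoplasmic reticulum, was sparse throughout. Its mean was 1.72 ± 0.695 CPM on Day 8, 1.18 ± 0.534 CPM on Day 10 and 1.13 ± 0.321 CPM on Day 12 (n = 10 each), from 380, 255 and 250 reads in all. The days overlapped in each comparison. No interval passed the stage threshold (log2 fold change -0.53 with FDR = 0.0867 from Day 8 to Day 10, and -0.61 with FDR = 0.0413 from Day 8 to Day 12). The estimate from Day 10 to Day 12 was -0.07 with a SE of 0.27 (FDR = 0.83). Its sign turned under 3 of the alternative settings and in 3 of 20 fits with 1 embryo left out.

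ATP1B3, the beta 3 subunit of the sodium pump, was lower at each later age. It lay between 1273 and 1978 CPM on Day 8 (median 1461, mean 1492 ± 189, n = 10), and between 694 and 1412 CPM on Day 10 (median 897, mean 964 ± 224). On Day 12 it lay between 296 and 419 CPM (median 323, mean 328 ± 37.1). Of the Day 10 embryos, 8 of 10 lay below every Day 8 embryo, and each Day 12 embryo lay below every Day 10 embryo. The fall from Day 10 to Day 12 was 2.94-fold (log2 fold change -1.56, SE 0.11, FDR = 8.16e-14) and the whole fall from Day 8 was 4.55-fold (-2.19, SE 0.11, FDR = 2.93e-17). Without the 2 Day 12 embryos that stand apart these were -1.54 and -2.17, and both passed. The first step was a 1.55-fold lower level (-0.63, SE 0.10, FDR = 7.33e-06), which met the FDR limit but not the limit on the fold change. Embryos of 1 day varied least in this gene on Day 12, where the highest was 1.42 times the lowest.

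ATP1B1, the beta 1 subunit found in most epithelia, moved the other way. On Day 8 it ranged from 0.259 to 2.36 CPM (median 0.675, mean 0.801 ± 0.603, n = 10) and on Day 10 from 0.819 to 8.09 CPM (median 1.55, mean 2.65 ± 2.33). On Day 12 it ranged from 1.88 to 34.5 CPM (median 20.5, mean 17.0 ± 11.7). The Day 12 embryos spread widely, with 6 above every Day 10 embryo and with d12_f_245 and d12_f_271 lowest at 1.88 and 3.18 CPM. The rise from Day 10 to Day 12 was 6.41-fold (log2 fold change 2.68, SE 0.48, FDR = 1.73e-05), and from Day 8 to Day 12 it was 20.6-fold (4.36, SE 0.53, FDR = 1.35e-08). Without the 2 embryos that stand apart these were 2.95 and 4.63, and both passed. The Day 10 to Day 12 rise was not called in female embryos alone (2.77) or in male embryos alone (2.57). The estimate from Day 8 to Day 10 was 1.68 (SE 0.50, FDR = 0.00498), from 210 reads on Day 8 and 617 on Day 10, and it did not pass. The robust GLM of edgeR (1.57) and DESeq2 (1.73) did call it, as they did 17.0% and 15.8% of all genes.

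**Figure D2:**
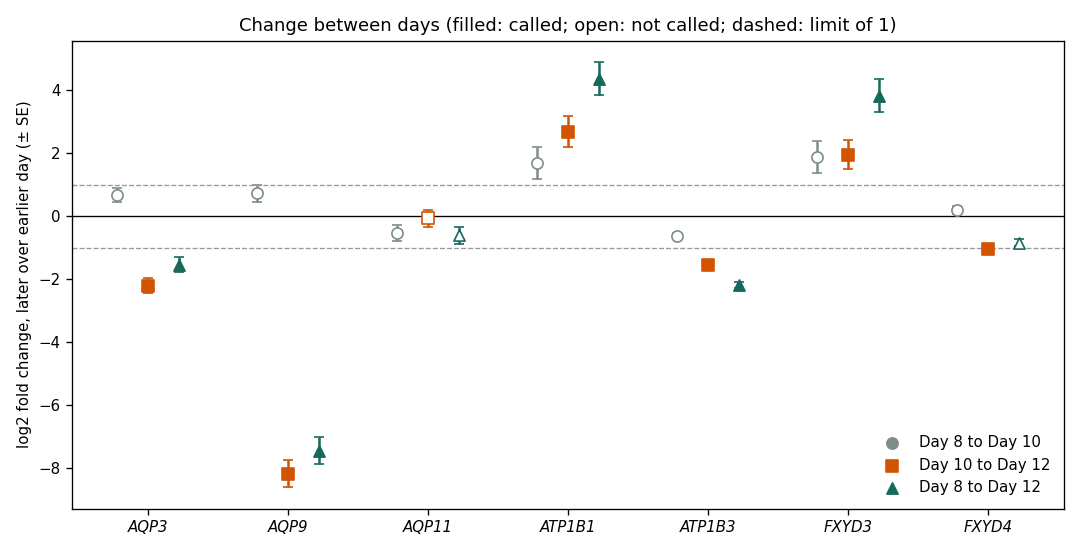
Log2 fold change of each member between days, later over earlier, with SE bars from the edgeR quasi-likelihood fit over 30 embryos. Filled symbols passed the stage threshold, whose limit on the log2 fold change is dashed, and all 7 symbols of the Day 8 to Day 10 comparison are open.

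The reads of ATP1B1 and ATP1B3 were also set against each other within each embryo, which removes the scaling between libraries. Shares were taken from the counts as they are, and log2 ratios with 0.5 added to each count. A ratio of reads depends on the lengths of both transcripts, whereas its change between days does so only where the transcripts in use change. The median share of ATP1B1 in the reads of both beta subunits was 0.0451% on Day 8, then 0.151% on Day 10, and reached 5.85% by Day 12. The log2 ratio of ATP1B1 over ATP1B3 was -11.07 ± 0.814 on Day 8, -8.85 ± 1.14 on Day 10 and -4.78 ± 1.41 on Day 12 (SD, n = 10). Single Day 12 embryos had ATP1B1 shares from 0.631% to 9.51%. Without d12_f_245 and d12_f_271 the median Day 12 share was 6.22%.

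**Figure D3:**
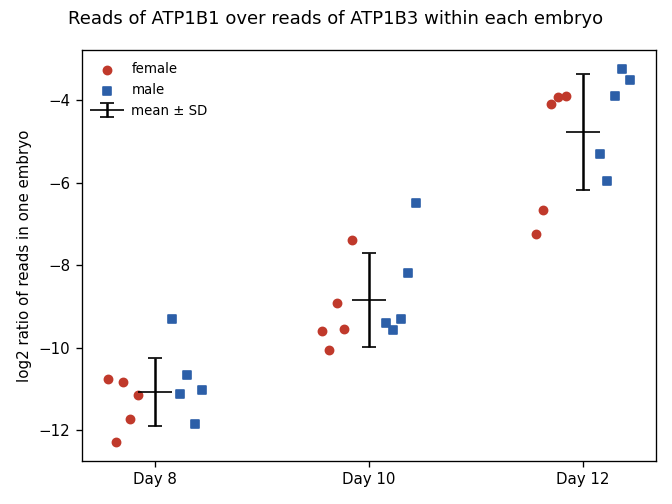
Log2 ratio of ATP1B1 reads over ATP1B3 reads within each embryo, by day, with female embryos as red circles, male embryos as blue squares, and the mean ± SD of 10 embryos in black. The means are -11.07, -8.85 and -4.78, and 2 female embryos have the lowest ratios of Day 12.

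FXYD3, a single-span modulator of the ion affinity of the pump, was barely detected on Day 8. It ran from 0 to 0.980 CPM there (median 0.470, mean 0.437 ± 0.288, n = 10), from 100 reads in all, and from 0.312 to 4.12 CPM on Day 10 (median 1.40, mean 1.60 ± 1.22). On Day 12 it ran from 1.93 to 19.4 CPM (median 4.35, mean 6.32 ± 5.51), so that Day 12 did not overlap Day 8 but did overlap Day 10. From Day 8 to Day 12 it rose 14.2-fold (log2 fold change 3.82, SE 0.52, FDR = 1.25e-07). The rise from Day 10 to Day 12 was 3.87-fold (1.95, SE 0.47, FDR = 0.000664) and lay at the edge of the threshold. That call was lost when any 1 of 10 embryos was left out. These were d10_f_315, d10_f_317, d10_f_336, d10_f_433, d10_m_318, d10_m_321 and d10_m_333 of Day 10, and d12_f_245, d12_f_289 and d12_m_275 of Day 12. Over all 20 such fits the log2 fold change ran from 1.59 to 2.22 and the FDR from 0.000197 to 0.00254. Without d12_f_245 and d12_f_271 it was 1.60 (FDR = 0.00339), and it was also not called with sex as a term, with the 2 days alone, in either sex alone or when tested against a log2 fold change of 1. From Day 8 to Day 10 the estimate was 1.87 (SE 0.50, FDR = 0.00222), which did not pass, although the robust GLM (1.69) and DESeq2 (1.89) called it.

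FXYD4, a corticosteroid-induced modulator that raises the sodium affinity of the pump, stayed abundant until Day 10. Its level was 272 ± 37.2 CPM on Day 8 and 313 ± 51.1 CPM on Day 10, and it was 152 ± 38.4 CPM on Day 12 (SD, n = 10). Every Day 12 embryo lay below every embryo of Days 8 and 10. It fell 2.06-fold from Day 10 to Day 12 (log2 fold change -1.04, SE 0.12, FDR = 1.34e-08), just beyond the limit of 1. Leaving out d10_f_454, d12_m_249 or d12_m_275 brought it inside that limit (smallest change -0.98), as did scaling by library size alone (-0.84), and it was not called when tested against a log2 fold change of 1 (FDR = 0.644). Without d12_f_245 and d12_f_271 it was -1.04 and passed. Scaling by library size moved the median of all genes from 0.04 to 0.24 in this interval. From Day 8 to Day 12 the difference was smaller than the limit (-0.84, SE 0.12, FDR = 4.19e-07), although it was called in male embryos alone (-1.01). The Day 8 to Day 10 estimate was 0.20 (SE 0.12, FDR = 0.159).

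On the looser criterion of an adjusted p under 0.05 alone, 5 of 7 members differed between Days 8 and 10, against 56.1% of all genes. These were AQP3, AQP9, ATP1B1 and FXYD3, with higher estimates on Day 10, and ATP1B3 with a lower one. That criterion was added after the data were seen.

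Female and male embryos were then compared on each day to ask whether these genes differed by sex. The Day 8, Day 10 and Day 12 tables held 5, 7 and 6 of the members (ATP1B1 and FXYD3 were not tested on Day 8, nor AQP9 on Day 12). None was called at FDR under 0.05 in edgeR's quasi-likelihood test, none had an unadjusted p under 0.05, and DESeq2 and the robust GLM called none. The share of all genes called on Days 8, 10 and 12 was 0.658%, 0.223% and 0.123% with the quasi-likelihood test, 1.37%, 0.36% and 0.827% with the robust GLM, and 1.13%, 0.454% and 1.37% with DESeq2. FXYD3 on Day 12 had the largest estimate, with a mean of 8.48 ± 7.16 CPM over the females against 4.16 ± 2.30 CPM over the males (SD, n = 5 each). That log2 difference of 1.05 (SE 0.59, FDR = 0.289) was 0.47 without d12_f_245. On Day 10, ATP1B1 averaged 3.39 ± 3.02 CPM over the males against 1.91 ± 1.30 CPM over the females (log2 difference, female over male, -0.85, SE 0.62, FDR above 0.99). It was -0.22 without d10_m_453 and -1.34 without d10_f_454. With such SE, differences of this size were not detectable. ATP1B3 was measured more tightly, and its log2 differences of 0.02, -0.11 and 0.02 had SE of 0.10, 0.19 and 0.13.

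The change between days was also compared between the sexes in an interaction test. No member passed FDR under 0.05 in any interval and none had an unadjusted p under 0.05. Over all genes the quasi-likelihood test called 0.0% in each interval, with 100, 2473 and 2863 genes at an unadjusted p under 0.05, and DESeq2 called 1 and 0 genes in the first 2 intervals and 196 as higher and 90 as lower from Day 8 to Day 12. The lowest FDR of a member was 0.352, for FXYD3 between Days 8 and 12 (log2 difference 1.54, SE 0.98). For AQP9 the interaction had a SE of 4.50 from Day 10 to Day 12 and of 1.10 from Day 8 to Day 12. Both rest on the same few Day 12 reads. The first estimate was very small (-0.018), where a SE derived from the test statistic is unstable, so no interval is given for it.

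Embryos of 1 day also differed among themselves. On Day 10, d10_f_454 and d10_m_453 had the lowest ATP1B3 levels (694 and 732 CPM) and the lowest AQP9 levels (4.99 and 5.35 CPM). The same 2 embryos had the highest FXYD3 levels (4.12 and 3.11 CPM). ATP1B1 was highest in d10_m_453 at 8.09 CPM, followed by d10_m_435 at 4.79 CPM and d10_f_454 at 4.12 CPM. For ATP1B3, d10_f_433 and d10_m_435 lay at the other end (1284 and 1412 CPM). These 2 also had the highest AQP3 levels (96.5 and 100.0 CPM), whereas the lowest AQP3 level was that of d10_m_333 at 35.3 CPM. Over all genes, d10_f_454 and d10_m_453 had the lowest mean correlation with the others of Day 10 (0.961 and 0.959, against 0.966 to 0.976), so they did not stand apart in these genes alone. The study took at least 1 female and 1 male from a gilt, and each of these pairs is a female and a male with close numbers. The labels do not say whether they were littermates, so spread between embryos and between litters cannot be told apart. These embryos were picked out after their values were seen.

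Over the 57 pairs of members within a day, none had an adjusted p under 0.05 for Pearson's r of log2 CPM across the 10 embryos (permutation test, 100000 resamples, adjusted over the 57 pairs), and 8 had an unadjusted p under 0.05. The lowest p was that of AQP11 and ATP1B3 on Day 10, with r = -0.889 (permutation p = 0.00184, adjusted 0.105), rho = -0.770 (permutation p = 0.0125, adjusted 0.238) and r = -0.655 without the 2 embryos farthest from the median. On Day 12, ATP1B1 and FXYD3 gave r = -0.679 (permutation p = 0.0297, adjusted 0.339) and rho = -0.806 (permutation p = 0.00711, adjusted 0.238), and r = -0.525 without 2 embryos. Neither relation passed the correction. No r was taken over all days, since the days form separate groups.

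The other genes of fluid transport were taken from lists of epithelial carriers, pumps and seals. Of the other aquaporins, only AQP5 of 8 listed genes was tested. AQP5, a water-selective channel of secretory epithelia, was 0.515 ± 0.310 CPM on Day 10 and 5.24 ± 4.10 CPM on Day 12, a rise of 3.32 on the log2 scale (SE 0.53, FDR = 2.57e-06). It thus rose over the interval in which AQP3 and AQP9 fell. Of the other FXYD genes, FXYD6 alone was tested, and it rose from 5.22 ± 1.38 CPM on Day 10 to 20.7 ± 4.99 CPM on Day 12 (1.98, SE 0.19, FDR = 1.59e-10).

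Among 4 proteins that bind or regulate the pump, 1 was higher and 1 lower on Day 10 than on Day 8. Over all genes, 9.88% were called higher and 4.2% lower. SGK1, a kinase that promotes sodium transport, rose from 107 ± 14.2 to 218 ± 27.5 CPM (log2 fold change 1.03, FDR = 7.51e-07), a call lost without d08_m_103 (0.99) and with library size alone (0.85). NKAIN1, a membrane protein that interacts with the beta 1 subunit, fell from a range of 46.2 to 73.4 CPM on Day 8 to one of 10.8 to 46.8 CPM on Day 10 (-1.11, FDR = 7.99e-06). From Day 10 to Day 12 its relative NKAIN2 was the 1 member of this list called, as higher (2.95, FDR = 4.49e-05), from levels near the detection limit. Over all genes, 14.9% were called higher and 8.39% lower in that interval.

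From Day 8 to Day 10, 9.88% of all genes were called higher and 4.2% lower. Of 9 genes for sodium and chloride entry, 2 were called higher on Day 10 than on Day 8 and none lower. These were the sodium/proton exchangers SLC9A2 (log2 fold change 2.85, FDR = 8.40e-05) and SLC9A3 (1.67, FDR = 0.000385). From Day 10 to Day 12, 2 were higher and 2 lower, against 14.9% and 8.39% of all genes. SLC9A3 rose again, from 20.1 ± 8.26 to 80.0 ± 45.3 CPM (1.99, FDR = 2.69e-05), while its scaffold protein SLC9A3R1 fell from 851 ± 114 to 160 ± 79.0 CPM (-2.41, FDR = 2.08e-12). The epithelial sodium channel subunit SCNN1A fell from 206 ± 37.8 to 77.4 ± 32.1 CPM (-1.41, FDR = 7.35e-07). The chloride channel CLCN2 was the other gene called higher.

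The proton and potassium ATPase ATP12A, which can pair with a sodium pump beta subunit, showed the largest change among the transport and tight junction genes between Days 8 and 10. It went from 0.400 ± 0.487 CPM on Day 8 to 228 ± 172 CPM on Day 10 (log2 fold change 8.99, SE 0.61, FDR = 2.60e-13) and was 191 ± 33.5 CPM on Day 12. Single Day 10 embryos lay anywhere from 19.3 to 532 CPM. From Day 10 to Day 12, 14.9% of all genes were called higher. Of the 3 genes of that list, ATP6V1B1, a subunit of the vacuolar proton pump, was called higher from Day 10 to Day 12 (3.56, FDR = 1.23e-05). It went from 0.501 ± 0.453 to 6.14 ± 7.14 CPM, with d12_f_245 highest at 25.2 CPM and the next embryo at 8.74 CPM.

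Of 11 tight junction genes, 2 were called higher and none lower in each interval. Over all genes, 9.88% and 14.9% were called higher in the 2 intervals, and 4.2% and 8.39% lower. Claudin gene CLDN3 rose from 0.233 ± 0.226 CPM on Day 8 to 10.4 ± 10.9 CPM on Day 10 and 171 ± 68.5 CPM on Day 12 (log2 fold changes 5.34 and 4.04, FDR = 2.24e-09 and 1.50e-09). CLDN6 rose from 123 ± 17.9 CPM on Day 10 to 725 ± 218 CPM on Day 12 (2.56, FDR = 2.17e-15). TJP3, a junctional scaffold, was higher on Day 10 than on Day 8 (1.11, FDR = 9.64e-08), a call lost with library size alone (0.92). The median log2 fold change of the list was 0.37 and 0.15 in the 2 intervals.

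**Figure D4:**
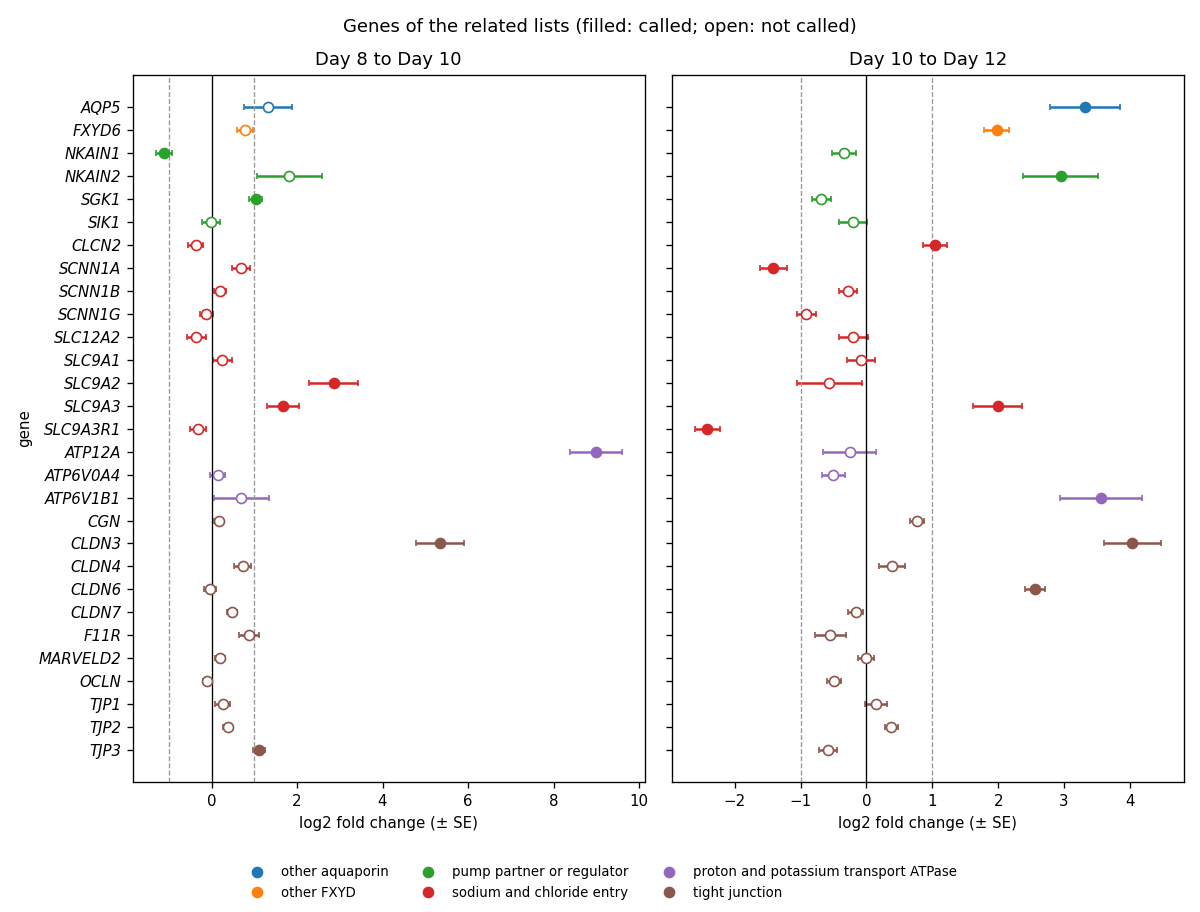
Log2 fold change with SE of the genes tested in 6 lists related to fluid transport, coloured by list, from Day 8 to Day 10 on the left and from Day 10 to Day 12 on the right. Filled symbols passed the stage threshold. ATP12A stands at 8.99 on the left. On the right, AQP5, NKAIN2, ATP6V1B1, CLDN3 and CLDN6 stand above 2, and SLC9A3R1 stands at -2.41.

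Markers of the cell layers changed over the same interval in which most members moved. Over all genes, 14.9% were called higher and 8.39% lower from Day 10 to Day 12. All 10 trophectoderm markers were found, and their summed level was 36415 to 53975 CPM on Day 10 and 11405 to 34940 CPM on Day 12, with 2 called higher and 4 lower. Most of that sum came from keratins, and KRT8 (24502 ± 3358 to 10225 ± 3261 CPM) and KRT18 (16629 ± 2277 to 3585 ± 1970 CPM) were called lower together with CDX2 and TEAD4. GATA3 and TFAP2A were called higher. All 7 epiblast markers were found, of which 5 were called lower on Day 12, among them NANOG and SOX2. Their sum ran from 240 to 928 CPM on Day 10 and from 416 to 1307 CPM on Day 12, where DPPA5 alone, which was not called in this interval, averaged 511 ± 303 CPM. Of 8 hypoblast markers 6 were found, with a summed level of 733 to 1403 CPM on Day 10 and 1270 to 6567 CPM on Day 12, and 4 were called higher. Of 7 mesoderm markers 3 were found, with a summed level of 23.5 to 179 CPM on Day 10 and 584 to 1852 CPM on Day 12, nearly all of it HAND1 (1065 ± 381 CPM on Day 12), which was called higher. T and EOMES were called lower, to means of 0.0472 and 0.0316 CPM. Of 10 markers of uterine or blood cells 4 were found, and their sum ran from 2.24 to 10.2 CPM on Day 10 and from 6.22 to 26.3 CPM on Day 12. These were MUC4, OVGP1, HBB and ALAS2, whereas PAEP, PGR, PTPRC, CD3E, HBA and HBM matched no row. Of the 4, MUC4 was called higher (3.73, FDR = 5.21e-06), from 0.585 ± 0.923 CPM on Day 10 to 8.00 ± 4.99 CPM on Day 12. No marker found was at 0 in all embryos of a day. The highest Day 12 sums of trophectoderm and epiblast markers were those of d12_f_271, and that of hypoblast markers was that of d12_f_245. Without these 2 embryos the Day 12 sums ran up to 23696, 962 and 3838 CPM. TFAP2A was then no longer called (0.91), while each other gene of the transport, junction and marker lists that was called from Day 10 to Day 12 was still called. The part of these shifts in the members' changes was not tested.

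The genes most like each member were taken as those with the highest Pearson's r of log2 CPM over the 30 embryos, which share the 3 days and the scaling. For AQP3 these were LOC110262192 (r = 0.937), DSC2 and PARP16, and for AQP9 they were ENPP3 (r = 0.985), SUCLA2 and GM2A. ATP1B1 was most like QPCT (r = 0.946), ITGA6 and ATP13A3, and ATP1B3 was most like BTK (r = 0.981), LOC100515156 and UPP1. FXYD3 was most like UPK3BL2 (r = 0.906), LOC100525237 and RAB11FIP3, and FXYD4 was most like MCOLN1 (r = 0.917), MPRIP and LOC100157453. AQP11 had no close match, its highest value being r = 0.658 with LOC100523526.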

How the data were processed

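Count tables of single porcine embryos were used, with 1 table of all 30 embryos and 3 tables of a single day. The authors deposited raw read counts per gene, made from reads trimmed by Trim Galore and aligned to the NCBI release of Sscrofa11.1, after removal of genes under a CPM cutoff. The aligner, counting tool and cutoff are not given in the sources used here, and libraries were made with a stranded mRNA kit. Such a cutoff keeps a gene only where it is expressed, so listed genes without a row were not tested. All 13103 gene identifiers matched a RefSeq symbol, and 0 columns were left unused. Replicate libraries differed by more than sampling noise (chi-square per degree of freedom of 7.91 to 295 over 60 pairs).

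CPM values were computed here with TMM factors in edgeR 4.0.16 (R 4.3.3), and log2 CPM with a prior count of 2. Days were compared in 1 fit of 3 groups of 10 embryos with the quasi-likelihood F test, at the thresholds of the study (FDR below 0.001, absolute log2 fold change above 1). Sexes were compared within the table of each day at FDR under 0.05, and the interaction in a fit of 6 groups. SE is the log2 fold change divided by the square root of F. The scripts were tested on simulated data. Alternatives were the robust GLM, DESeq2 1.42.0, RLE factors, library size alone, at least 10 counts in 5 embryos, sex as a term, 2 days or 1 sex alone, testing the fold change against the limit itself, and each embryo left out. Both Day 12 embryos with the lowest mean correlation with the others of their day were also left out, and an adjusted p under 0.05 was used alone, both added after the data were seen. Two-sided permutation tests used 100000 resamples.

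The members and the 11 gene lists were chosen with earlier results of these data known. Every member with a row was described, up to 3 called genes with the largest change were named per list and comparison, and the 3 genes most like a member were taken by Pearson's r. CLCN2 and some cell markers were named to complete a count, after their values were seen. The other sodium pump subunits are not reported here.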

Additional observations from a re-analysis of the deposited data

Results flagged for a closer look

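For each member, the 3 days and the 6 groups of day and sex (63 sets in all) were searched for an embryo that stands apart from the others by Dixon's criterion. Chance meets it in about 1 of 20 independent sets of normally distributed values. In 8 sets 1 embryo did so. Days and groups share embryos and CPM was not transformed, so this number cannot be set against that rate. AQP9 on Day 12 was 0.235 CPM in d12_f_299, which stood apart both over the day and among the females, from 4 reads. The other 4 females had no read, so any read would have stood apart among them. ATP1B1 on Day 8 was 2.36 CPM in d08_m_103, both over the day (next highest 1.13 CPM) and among the males. FXYD4 in the same embryo was 357 CPM, against 270.9 CPM in the next male. ATP1B3 on Day 8 was 1978 CPM in d08_f_105, with the next embryo at 1535 CPM. ATP1B3 on Day 12 was 419 CPM in d12_m_276, both over the day (next highest 353 CPM) and among the males. The cause of these values was not tested.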

How the results depend on the processing

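The quasi-likelihood fit called 0 members between Days 8 and 10, whereas the robust GLM called 2, DESeq2 called 2 (ATP1B1 and FXYD3 in both) and an adjusted p under 0.05 alone would call 5. The shares of all genes in these 4 settings were 14.1%, 17.0%, 15.8% and 56.1%. From Day 10 to Day 12 the alternatives called 4 to 6 members against 6, and from Day 8 to Day 12 they called 4 to 7 against 5. The 7 came from an adjusted p under 0.05 alone. From Day 8 to Day 12, 9843 of 13103 genes had an unadjusted p under 0.05 in the quasi-likelihood test. The other alternatives called 1574 to 3336 of all genes from Day 10 to Day 12, against 3050. From Day 8 to Day 12 they called 2403 to 4464, against 4255. Library size alone moved the median log2 fold change of all genes from 0.03 to -0.15 between Days 8 and 10 and from 0.04 to 0.24 between Days 10 and 12. In the first interval it also moved the split of calls over all genes, from 1295 of 1845 higher to 1027 of 1838 higher. AQP11 from Day 10 to Day 12 turned to 0.0077 with the robust GLM, 0.16 with library size alone and 0.20 in male embryos alone, and ran from -0.16 to 0.079 with 1 embryo left out. No other member changed direction between days in the alternatives run. The sex differences, none of them called, changed sign more often, and most were smaller than their SE. On Day 8, AQP11 was -0.00023 with DESeq2, and the robust GLM gave -0.046 for ATP1B3 and 0.020 for FXYD4. On Day 12, AQP11 was 0.0079 with RLE factors, and without d12_f_245 and d12_f_271 the values were 0.38 for AQP3, 0.13 for AQP11 and 0.097 for ATP1B1. With 1 embryo left out, the Day 8 differences ran from -0.092 to 0.35 (AQP9), -0.19 to 0.20 (AQP11), -0.090 to 0.080 (ATP1B3) and -0.095 to 0.079 (FXYD4). Those of Day 10 ran from -0.10 to 0.22 (AQP3), -0.25 to 0.047 (ATP1B3) and -0.0040 to 0.20 (FXYD4). Those of Day 12 ran from -0.29 to 0.14 (AQP3), -0.13 to 0.20 (AQP11) and -0.017 to 0.11 (ATP1B3). The causes were not tested. Depth limits AQP9 on Day 12 and FXYD3 and ATP1B1 on Day 8, which rest on 9, 100 and 210 reads over 10 embryos.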
